A study of Mus musculus with 116 samples.

Results

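This account covers 24 hours of GM-CSF in parental FDB1 cells, set against parental FDB1 cells at 0 hours. FDB1 is a mouse myeloid line that needs an added growth factor to survive. The members are the 4 arrays that hold both RNAs, of 90 arrays of print run 1 and 26 of print run 2 in the series: 1 dye-swap pair for replicate 1 and 1 for replicate 2. The label was the only criterion, and no measured value was used to choose them. The 24 h group is parental FDB1 cells washed 3 times out of IL-3 and kept in 500 U/mL of GM-CSF. The 0 h group is the same cells in 10% serum and 500 U/mL of IL-3 at the moment IL-3 was removed. One of the 0 h RNAs carries a GM-CSF source name and the other an IL-3 source name, and the design text calls the pair equivalent. Further RNAs enter below as comparisons: parental cells at 6, 12, 48 and 72 hours in GM-CSF, and FDB1 cells carrying the FI-Delta or V449E receptor mutant, grown in IL-3 and left without factor, at 24 and 0 hours. FDB1 is 1 immortal line, and the mutant receptors were introduced into it, so each group is a line in culture and not a tissue.

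GM-CSF and IL-3 are cytokines whose receptors pair a private alpha chain with a shared beta chain and signal through JAK2, STAT5 and the ERK cascade. In FDB1 cells IL-3 is known to sustain proliferation, whereas GM-CSF lets the cells mature towards granulocytes and macrophages. In myeloid cells GM-CSF is also known for raising phagocyte receptors, cytokines and survival proteins of the BCL2 family.

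Values are log2 ratios as the authors normalised them, written here as GM-CSF 24 h over parental 0 h. A value of 1 is a 2-fold higher level in GM-CSF. Log base 2 and the direction Cy5 over Cy3 are likely but not stated in the sources used here. Ratios give no level for either RNA alone. Each direct array had a median within 0.0034 of 0 before signs were turned, and a median absolute deviation between 0.102 and 0.144. After turning, the dye orders correlated at r = 0.307 in replicate 1 and 0.563 in replicate 2 across 21797 probes, and the dye-swap averages of the replicates at 0.299. These correlations run across probes, which are not independent replicates. Replicate 1 lay on print run 1 and replicate 2 on print run 2, so replicate and print run cannot be told apart. Whether the replicates came from separate cultures is not given by the labels, so the spread behind the p-values may be technical. That spread was pooled over the replicates of all 18 conditions. A standard error below is therefore not the gap between the 24 h and 0 h replicates of that gene alone.

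At 24 hours 178 probes were higher in GM-CSF and 62 were lower, in a limma fit that used all arrays, with Benjamini-Hochberg adjusted p under 0.05. That is 0.817% of the 21797 probes tested for the rises and 0.284% for the falls, or 1.1% either way. The rises ran from 0.27 to 2.44 on the log2 scale with a median of 0.66, and the falls from 0.28 to 2.64 in size with a median of 0.60. At least a 2-fold difference was seen for 32 of the rises and 6 of the falls. All 4 direct arrays pointed in the fitted direction for 236 of the 240 probes (98.3%), against 21.8% of all probes. These arrays are part of the fit, so this share is a description of the probes called. Which probes were called depended on each of the 4 RNAs: with any 1 of them left out, most of the 240 were no longer called. Without parental 0 h replicate 2, 238 of the 240 kept their direction, and all 240 did with any other of these RNAs left out. Leaving out an RNA, here and below, also left out every array that held it. These were 16 arrays for each parental 0 h RNA and 4 for each GM-CSF 24 h RNA. The loss of an RNA and the loss of its arrays cannot be told apart in such fits. In RNA from whole cultures, fewer cells of a type and less RNA per cell cannot be told apart.

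**Figure D1:**
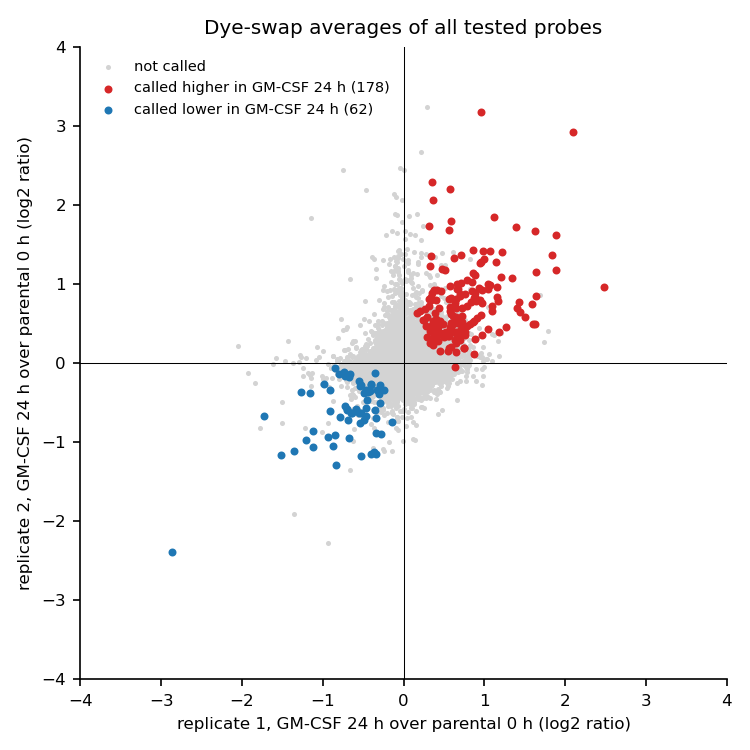
Dye-swap averages of each tested probe in replicate 1 (horizontal axis) and replicate 2 (vertical axis), both as log2 ratios of GM-CSF 24 h over parental 0 h. The 178 probes called higher (red) sit in the upper right, with 1 of all 240 called probes on the other side of an axis, and the 62 called lower (blue) in the lower left; grey points were not called.

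The largest rise was of Clec4n, the C-type lectin dectin-2 that binds fungal mannans. Its ratios were 2.04 and 2.16 on the replicate 1 arrays and 2.55 and 3.30 on the replicate 2 arrays. The fitted difference was 2.44 (SE 0.26, n = 2 RNAs a group, limma adjusted p = 1.35e-05), a 5.41-fold higher level. All 4 arrays were far above 0, replicate 2 higher than replicate 1. Saa2, an acute phase serum amyloid protein, had ratios of 0.86 and 1.06 in replicate 1 and of 2.92 and 3.43 in replicate 2. Its rise of 1.72 (SE 0.28, limma adjusted p = 0.00151) rested mostly on replicate 2. Upp1, the uridine phosphorylase of pyrimidine salvage, had ratios of 2.03 and 1.64 in replicate 1 and of 1.36 and 1.37 in replicate 2, and rose by 1.56 (SE 0.19). The arrays of the 2 replicates did not overlap, and every one showed more than a 2-fold difference. Gpr84, a receptor for medium-chain fatty acids on phagocytes, rose by 1.41 (SE 0.24), with ratios from 0.93 to 2.11 over the 4 arrays. Ms4a6d, a 4-span membrane protein of myeloid cells, rose by 1.30 (SE 0.21), and its second probe rose by 0.70.

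The 12 largest rises and 12 largest falls differed in how they fared when single RNAs, with all their arrays, were left out. Of these 24 genes, 8 passed in the fit and in every alternative run: Clec4n, Bcl2a1d, Upp1, Bcl2a1c, Slc11a1, Ms4a6d, Clec5a and Tmtc2. Without parental 0 h replicate 1, 11 of the 12 falls did not pass (adjusted p from 0.115 to 0.992), and neither did the rises of Fth1 (0.105) and Gpr84 (0.162). Without parental 0 h replicate 2 the rise of Clec4d did not pass (adjusted p = 0.0669), and without GM-CSF 24 h replicate 2 that of Bcl2a1a (0.0518). All 24 genes kept their direction in every alternative.

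**Figure D2:**
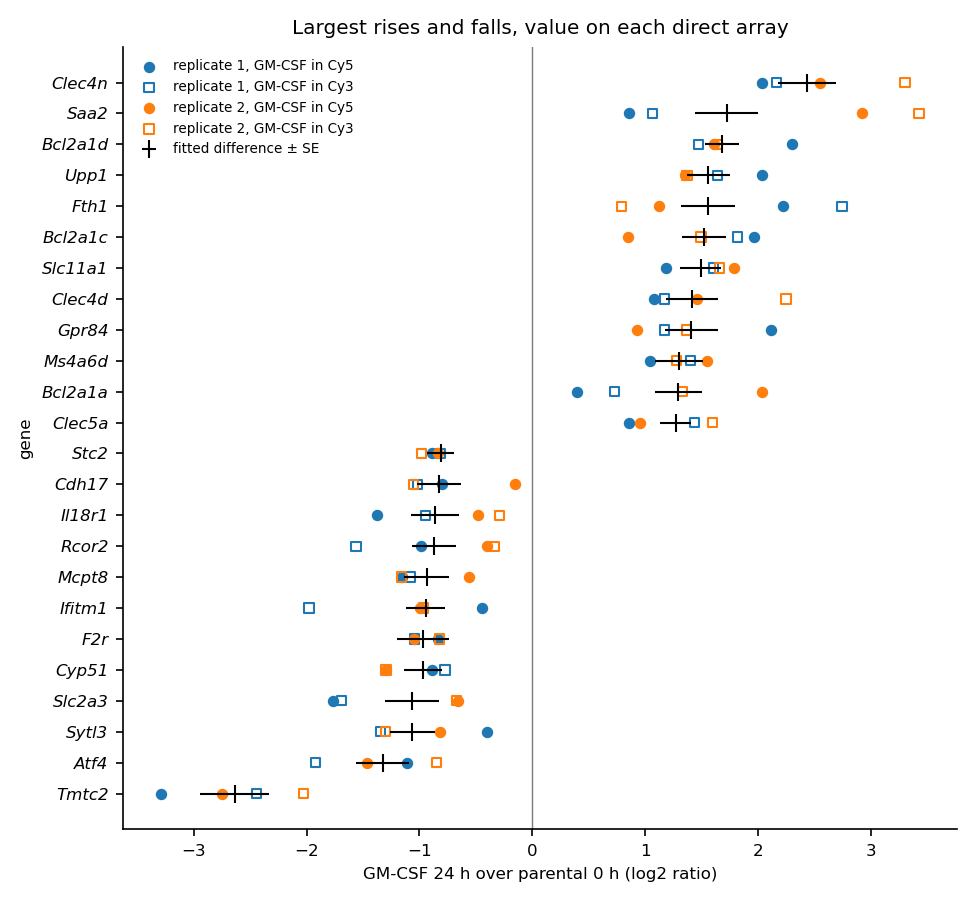
Log2 ratio of GM-CSF 24 h over parental 0 h on each of the 4 direct arrays for the 12 largest rises and the 12 largest falls, with the fitted difference and its standard error (black). Every array lies on the fitted side of 0 for all 24 genes; Saa2, Fth1, Slc2a3 and Bcl2a1a show the widest gaps between replicates.

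Of 41 measured genes of the macrophage list, 12 rose, 0 fell and 29 did not pass, against 1.12% of all 15097 genes called higher and 0.344% called lower. The list's median was 0.35, against 0.0063 over all genes, and 30 of the 41 were above 0 on all 4 arrays, as were 11.9% of all probes. The same shares of all genes apply to every list count against parental 0 h below. All gene lists were chosen with earlier results of these data known, so such counts describe the lists and are not a test of them. Itgax, the integrin CD11c of dendritic cells and macrophages, had ratios of 0.86 and 1.03 in replicate 1 and of 1.08 and 1.44 in replicate 2. It rose by 1.08 (SE 0.18, limma adjusted p = 0.00189). All 4 arrays were well above 0, replicate 2 the higher. Ctss, the lysosomal protease cathepsin S of antigen processing, had ratios of 0.73 and 0.70 in replicate 1 and of 1.61 and 1.12 in replicate 2, and rose by 0.94 (SE 0.21). Cd68, a lysosomal glycoprotein of macrophages, had ratios of 1.01 and 0.93 in replicate 1 and of 0.89 and 0.63 in replicate 2, and rose by 0.93 (SE 0.15). Cathepsin S was higher in replicate 2, and Cd68 about alike in both. Clec4n, given above, was the largest of the 12 rises and is counted again among the C-type lectins below. The other rises, named here after their values were seen, were Mmp12, Ccr2, Tyrobp, Fcer1g, Sirpa, Fcgr1, Abca1 and Apoe, at 0.32 to 0.89. Tyrobp and Fcer1g encode the adaptor chains through which Fc receptors and several C-type lectins signal. The count of 12 was between 6 and 9 with any 1 of the 4 RNAs left out: 7 without parental 0 h replicate 1, 6 without parental 0 h replicate 2, 6 without GM-CSF 24 h replicate 1 and 9 without GM-CSF 24 h replicate 2.

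Among 20 measured C-type lectins and pattern receptors, 4 rose and 0 fell, with a list median of 0.31. They were Clec4n, Clec4d, Clec5a and Myd88. Clec4d, which pairs with the mycobacterial glycolipid receptor Clec4e, had ratios of 1.08 and 1.17 in replicate 1 and of 1.46 and 2.25 in replicate 2, and rose by 1.41 (SE 0.23). Clec5a, a lectin that signals through the adaptor Tyrobp, had ratios of 0.86 and 1.43 in replicate 1 and of 0.96 and 1.59 in replicate 2, and rose by 1.27 (SE 0.14, limma adjusted p = 1.54e-05). The replicates of Clec5a overlapped, and those of Clec4d did not overlap. Myd88, the adaptor of Toll-like and interleukin-1 receptors, rose by 0.48 (SE 0.12).

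Of 25 measured inflammatory cytokines and chemokines, 7 rose and 0 fell, with a median of 0.19. Il1a, the alarm cytokine interleukin-1 alpha, had ratios of 0.85 and 0.31 in replicate 1 and of 1.80 and 1.80 in replicate 2, and rose by 1.22 (SE 0.20). Ccl6, a myeloid chemokine, had ratios of 1.01 and 0.94 in replicate 1 and of 1.50 and 1.34 in replicate 2, and rose by 1.10 (SE 0.15, limma adjusted p = 2.46e-04). Both were higher in replicate 2 with no overlap. Tnf had ratios of 1.09 and 1.00 in replicate 1 and of 0.86 and 1.15 in replicate 2, and rose by 0.95 (SE 0.18). Ccl5 rose by 0.89 (SE 0.20). The other 3, named after their values were seen, were Il1rn, the interleukin-1 receptor antagonist, at 0.89, Ccl17 at 0.80 and Tgfb1 at 0.47. So the list's rises include an antagonist and a cytokine known to damp inflammation. The count of 7 was 2 without parental 0 h replicate 1, 3 without parental 0 h replicate 2 and 3 without GM-CSF 24 h replicate 2.

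Of 44 measured lysosomal genes 5 rose and 0 fell, with a median of 0.20. They were Ctss, Cd68, Lipa, Ctsa and, named after its value was seen, Lamp1 at 0.39. Lipa, the acid lipase that frees cholesterol and fatty acids from lipoproteins, had ratios of 1.12 and 1.08 in replicate 1 and of 0.69 and 0.64 in replicate 2. It rose by 0.77 (SE 0.17, limma adjusted p = 0.0206), with replicate 1 the higher. Ctsa, the protective protein cathepsin A, rose by 0.40 (SE 0.09). The count of 5 was 1 without parental 0 h replicate 2, 2 without parental 0 h replicate 1 and 3 without GM-CSF 24 h replicate 1. Of 19 genes of lipid uptake and storage 3 rose and 0 fell: Lipa, the cholesterol exporter Abca1 at 0.50 (SE 0.12) and the apolipoprotein Apoe at 0.32 (SE 0.08). That count was 0 without parental 0 h replicate 1 and 1 without any of the other 3 RNAs.

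The macrophage markers Cd68 and Fcgr1 rose, and the others were Cd14 at 0.97, Mpeg1 at 0.69, Itgam at 0.35, Adgre1 at 0.28 and Msr1 at 0.04, none past the threshold. Cd14, the lipopolysaccharide co-receptor, had ratios of 0.26 and 0.08 in replicate 1 and of 2.07 and 1.69 in replicate 2 (adjusted p = 0.0616). Its replicates stood far apart. Of 8 neutrophil markers 0 passed, with a median of -0.13 and a range from -1.47 to 0.73. Of 6 mast cell and basophil markers 1 fell, Mcpt8 at -0.94, and their median was -0.06. Of 6 markers of granulocyte-monocyte progenitors 0 passed, with a median of -0.26. Markers of erythroid, megakaryocytic and lymphoid cells gave 0 calls among 4, 3 and 4 measured. Their part in the results above was not tested.

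The largest rise within the cell death list was of the Bcl2a1 genes, a family known for A1 proteins that restrain apoptosis in myeloid cells. Of 27 measured genes 3 rose and 0 fell, all 3 of them Bcl2a1 copies, and the list's median was 0.05. Bcl2a1d had ratios of 2.30 and 1.47 in replicate 1 and of 1.61 and 1.64 in replicate 2, and rose by 1.68 (SE 0.15, limma adjusted p = 1.57e-06). Bcl2a1c had ratios of 1.96 and 1.82 in replicate 1 and of 0.85 and 1.49 in replicate 2, and rose by 1.52 (SE 0.20). Bcl2a1a had ratios of 0.40 and 0.73 in replicate 1 and of 2.03 and 1.33 in replicate 2, and rose by 1.29 (SE 0.21). The replicates overlapped for Bcl2a1d and lay apart for Bcl2a1c and Bcl2a1a, in opposite order. These copies are near-identical, so an array probe may take up RNA of more than 1 of them. The 100 bases before and 50 after the RefSeq starts (GRCm38.p6) of a pair of them are shown to make that likeness visible, with capitals at the 2 bases that differ. They are Bcl2a1a at chr9:88956820-88956969 (plus strand) and Bcl2a1d at chr9:88731801-88731950 (minus strand).
Bcl2a1a: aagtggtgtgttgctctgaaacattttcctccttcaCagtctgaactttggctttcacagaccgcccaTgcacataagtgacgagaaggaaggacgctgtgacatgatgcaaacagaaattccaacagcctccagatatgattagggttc
Bcl2a1d: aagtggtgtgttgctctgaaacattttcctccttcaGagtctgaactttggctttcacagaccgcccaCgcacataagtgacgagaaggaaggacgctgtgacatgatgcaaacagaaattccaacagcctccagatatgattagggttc

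Iron handling and oxidative defence genes rose in part, 5 of 25 measured with 0 lower and a median of 0.24. Fth1, the ferritin heavy chain that stores iron, had ratios of 2.22 and 2.74 in replicate 1 and of 1.13 and 0.79 in replicate 2. It rose by 1.56 (SE 0.24, limma adjusted p = 0.00117), with replicate 1 well above replicate 2. Slc11a1, the phagosomal metal transporter NRAMP, had ratios of 1.18 and 1.61 in replicate 1 and of 1.78 and 1.66 in replicate 2, and rose by 1.49 (SE 0.18, limma adjusted p = 7.47e-05). Its replicates did not overlap but stood close. Slc7a11, the cystine transporter that feeds glutathione synthesis, had ratios of 1.15 and 1.17 in replicate 1 and of 1.00 and 0.67 in replicate 2, and rose by 0.99 (SE 0.18). Nfe2l2, the transcription factor NRF2 of the oxidative stress response, rose by 0.67 (SE 0.13). Blvrb, a biliverdin reductase named after its value was seen, rose by 0.51 (SE 0.12). The count of 5 was 2 without parental 0 h replicate 1 and 2 without GM-CSF 24 h replicate 1.

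Of 19 measured genes of cholesterol synthesis and its control 10 fell at 24 hours, 0 rose and 9 did not pass, against 0.344% of all genes called lower. Cells build cholesterol from acetyl-CoA through mevalonate, squalene and lanosterol, under the transcription factor SREBP2, which is known to act with the CCAAT-binding factor NF-Y. All 19 fitted differences were below 0, with a median of -0.56, and 15 genes were below 0 on all 4 arrays, as were 10.6% of all probes. Cyp51, the lanosterol demethylase, had ratios of -0.89 and -0.77 in replicate 1 and of -1.29 and -1.30 in replicate 2. It fell by 0.97 on the log2 scale (SE 0.17, limma adjusted p = 0.00309), a level 1.96-fold lower in GM-CSF, and its replicates did not overlap. Fdft1, the squalene synthase, had ratios of -0.42 and -0.40 in replicate 1 and of -1.13 and -1.16 in replicate 2, and fell by 0.73 (SE 0.14). Msmo1, the sterol methyl oxidase, had ratios of -0.49 and -0.56 in replicate 1 and of -0.77 and -0.49 in replicate 2, and fell by 0.69 (SE 0.16). Sqle, the squalene epoxidase, had ratios of -0.18 and -0.49 in replicate 1 and of -0.93 and -1.36 in replicate 2, and fell by 0.64 (SE 0.13). Cyp51, Fdft1 and Sqle were lower in replicate 2 without overlap, and Msmo1 was alike in both.

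The other 6 falls of the pathway, named after their values were seen, were Stard4, Pmvk, Insig1, Sc5d, Dhcr7 and Tm7sf2, between -0.62 and -0.29. Fdps, the farnesyl diphosphate synthase, was at -0.90 and Idi1, the isopentenyl diphosphate isomerase, at -0.56, and neither passed (adjusted p = 0.058 and 0.0643). Lss, the lanosterol synthase, and Ebp, a sterol isomerase, stood at -0.0028 and -0.0053. The ratios were lower in replicate 2 than in replicate 1 for 14 of the 19 genes, and the list's median was -0.38 in replicate 1 and -0.63 in replicate 2. The count of 10 depended on 3 of the 4 RNAs: it was 0 without GM-CSF 24 h replicate 2, 2 without parental 0 h replicate 1, 2 without parental 0 h replicate 2 and 8 without GM-CSF 24 h replicate 1.

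**Figure D3:**
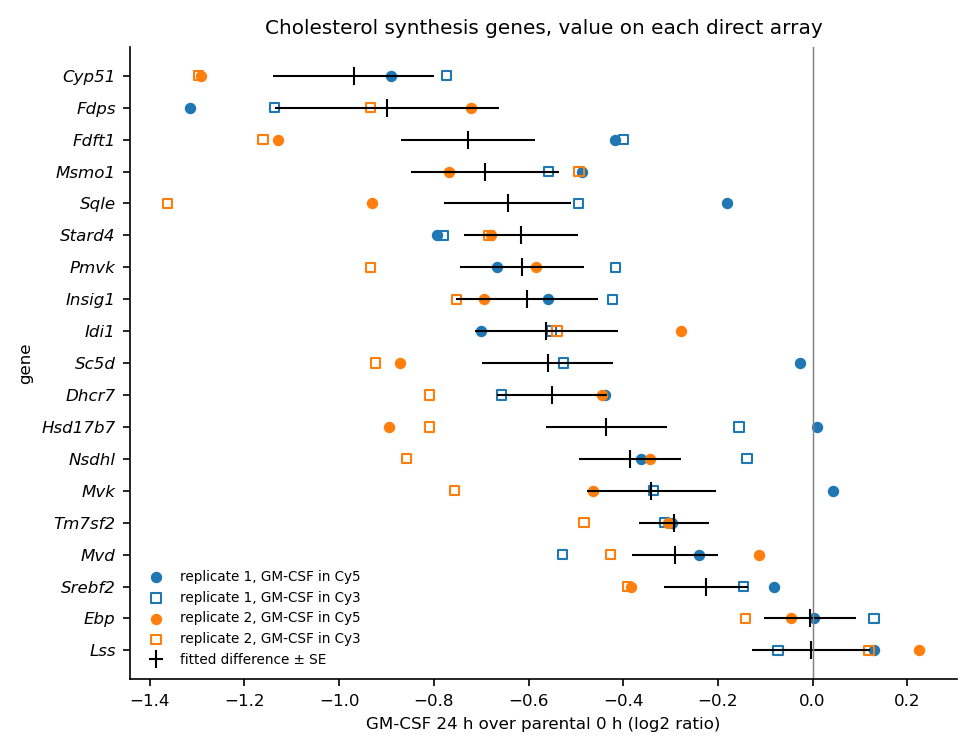
Log2 ratio of GM-CSF 24 h over parental 0 h on the 4 direct arrays for the 19 measured cholesterol synthesis genes, with the fitted difference and its standard error (black). All but Ebp and Lss have a fitted difference more than its standard error below 0, and replicate 2 (orange) lies lower for 14 of the 19.

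Because 10 of the pathway's genes fell, the list's promoter windows were searched for the letters CCAAT on both strands. The windows run from 250 bases before to 50 bases after each RefSeq start (GRCm38.p6). Of the 19 genes 15 had a window, and all 15 held CCAAT, among them all 7 of the fallen genes that had one. Of all 27025 genes with a window, 41.1% held it. A match is a description of these letters and not a site of binding. The windows of 2 fallen genes are shown with CCAAT in capitals, Cyp51 with 1 copy at chr5:4104648-4104947 (minus strand) and Msmo1 with 3 copies at chr8:64733529-64733828 (minus strand).
Cyp51: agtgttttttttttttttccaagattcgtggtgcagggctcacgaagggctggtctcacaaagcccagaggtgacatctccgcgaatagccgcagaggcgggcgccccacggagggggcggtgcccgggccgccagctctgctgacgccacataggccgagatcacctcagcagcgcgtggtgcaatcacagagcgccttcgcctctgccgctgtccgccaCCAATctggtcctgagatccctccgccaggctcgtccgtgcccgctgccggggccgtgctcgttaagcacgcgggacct
Msmo1: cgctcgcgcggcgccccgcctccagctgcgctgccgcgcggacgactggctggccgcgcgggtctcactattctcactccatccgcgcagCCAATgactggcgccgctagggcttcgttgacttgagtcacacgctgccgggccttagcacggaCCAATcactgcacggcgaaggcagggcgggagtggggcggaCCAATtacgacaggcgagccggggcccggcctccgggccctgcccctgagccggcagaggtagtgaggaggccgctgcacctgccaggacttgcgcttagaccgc

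The amino acid and ATF4 list split in direction. ATF4 is a transcription factor whose translation is raised when amino acids run short or the endoplasmic reticulum is stressed, and its targets make and import amino acids. Of 32 measured genes 3 fell and 2 rose, against 0.344% of all genes called lower and 1.12% called higher. The list's median was -0.28, and 19 of its genes were below 0 on all 4 arrays, as were 10.6% of all probes. Atf4 itself had ratios of -1.11 and -1.92 in replicate 1 and of -1.47 and -0.85 in replicate 2. It fell by 1.33 (SE 0.23, limma adjusted p = 0.00300), a level 2.51-fold lower in GM-CSF, with overlapping replicates. Asns, the asparagine synthetase, had ratios of -0.35 and -0.70 in replicate 1 and of -1.29 and -1.07 in replicate 2, and fell by 0.77 (SE 0.14). Psph, the phosphoserine phosphatase of serine synthesis, named after its value was seen, fell by 0.71 (SE 0.16). Asns was lower in replicate 2. Without parental 0 h replicate 1 the count over the list was 3 and Atf4 did not pass (adjusted p = 0.205). Without GM-CSF 24 h replicate 2 it was also 3, and Atf4 did not pass there either (0.0503).

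Other members had values below 0 without passing. Chac1, which degrades glutathione, was at -0.80, Trib3, a pseudokinase, at -0.76 and Psat1, a serine synthesis enzyme, at -0.50. The rises in the list were of Slc7a11 and of Cebpb, a C/EBP factor of macrophage genes, whose ratios were 1.13 and 0.57 in replicate 1 and 0.96 and 0.86 in replicate 2. Cebpb rose by 0.87 (SE 0.13, limma adjusted p = 6.66e-04). Of 17 measured aminoacyl tRNA synthetases 0 passed, and 15 of them had fitted differences below 0, with a median of -0.11.

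The letters TGATGNAA, the form of the composite element that ATF4 and C/EBP proteins are known to bind, were searched in the same windows on both strands. They were held by 9 of the 29 list genes with a window and by 4.51% of all genes with one. Of the 3 fallen genes 1 held them, Asns. The windows of Asns, which fell, and Slc7a11, which rose, are shown with the match in capitals to set side by side a pair of genes with the element and opposite changes. Asns has 1 copy (chr6:7693160-7693459, minus strand) and Slc7a11 has 2, of which 1 reads on the other strand (chr3:50443564-50443863, minus strand).
Asns: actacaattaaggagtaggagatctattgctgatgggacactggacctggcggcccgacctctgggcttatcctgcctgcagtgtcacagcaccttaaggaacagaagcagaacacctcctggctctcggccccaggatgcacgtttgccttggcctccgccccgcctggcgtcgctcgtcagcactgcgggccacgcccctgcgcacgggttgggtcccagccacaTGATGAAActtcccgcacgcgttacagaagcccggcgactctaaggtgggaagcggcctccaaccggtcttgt
Slc7a11: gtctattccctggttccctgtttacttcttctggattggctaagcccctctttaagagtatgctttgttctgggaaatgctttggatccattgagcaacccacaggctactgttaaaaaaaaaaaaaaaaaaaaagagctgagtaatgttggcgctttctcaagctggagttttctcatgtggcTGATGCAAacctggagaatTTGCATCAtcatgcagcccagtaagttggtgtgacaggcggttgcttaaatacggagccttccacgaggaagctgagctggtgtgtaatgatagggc

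The largest fall of all was of Tmtc2, which encodes a membrane protein of the endoplasmic reticulum. Its ratios were -3.29 and -2.44 in replicate 1 and -2.75 and -2.02 in replicate 2. It fell by 2.64 (SE 0.31, limma adjusted p = 4.51e-05), a level 6.21-fold lower in GM-CSF, and the replicates overlapped. Slc2a3, the glucose transporter GLUT3, had ratios of -1.76 and -1.69 in replicate 1 and of -0.66 and -0.67 in replicate 2, and fell by 1.06 (SE 0.24). It was the 1 gene to pass among 20 of the glycolysis list, whose median was -0.02. Without either GM-CSF 24 h RNA, or without parental 0 h replicate 1, that count was 0.

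Sytl3, Mcpt8 and F2r were also among the 12 largest falls. Sytl3, a Rab27 effector in granule release, had ratios of -0.40 and -1.34 in replicate 1 and of -0.81 and -1.30 in replicate 2, and fell by 1.06 (SE 0.20). Mcpt8, a basophil protease, had ratios of -1.15 and -1.08 in replicate 1 and of -0.56 and -1.16 in replicate 2, and fell by 0.94 (SE 0.20). F2r, the thrombin receptor, had ratios of -0.84 and -1.04 in replicate 1 and of -1.04 and -0.82 in replicate 2, and fell by 0.97 (SE 0.23, limma adjusted p = 0.0393). Replicates overlapped for all 3 genes. Each was the only gene to pass in its list, among 17 of secretory granule exocytosis, 22 of mast cells and basophils and 14 of megakaryocytes and platelets. Mcpt8 did not pass with any 1 of the 4 RNAs left out. F2r passed without parental 0 h replicate 2 (adjusted p = 0.0435) but with none of the other 3 left out. Sytl3 did not pass without parental 0 h replicate 1 (0.211) or without GM-CSF 24 h replicate 2 (0.139). Cpa3, the mast cell carboxypeptidase, was at 0.11 and did not pass.

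Il18r1, a chain of the interleukin-18 receptor, had ratios of -1.37 and -0.94 in replicate 1 and of -0.48 and -0.29 in replicate 2, and fell by 0.86 (SE 0.21, limma adjusted p = 0.0482). This value lay close to the threshold and passed without parental 0 h replicate 2 but with none of the other 3 RNAs left out. Ifitm1 and Ifitm3, interferon-induced membrane proteins, fell by 0.94 (SE 0.17) and 0.69 (SE 0.17), whereas Irf7, an interferon regulatory factor, rose by 0.65 (SE 0.17). The interferon list, which holds Ifitm3 and Irf7 but not Ifitm1, had 1 rise and 1 fall among 26 genes and a median of 0.05, and its calls numbered 0 without either parental 0 h RNA, 0 without GM-CSF 24 h replicate 2 and 1 without GM-CSF 24 h replicate 1. Stc2, a secreted glycoprotein, had ratios between -0.98 and -0.81 on the 4 arrays and fell by 0.81 (SE 0.12), the narrowest spread of the 12 falls. Rcor2, a corepressor of the LSD1 complex, fell by 0.87 (SE 0.20) and Cdh17, a cadherin, by 0.83 (SE 0.19). Over the 12 falls, 6 did not pass without GM-CSF 24 h replicate 1 and 9 without GM-CSF 24 h replicate 2.

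None of the 3 measured receptor chains named here passed in its own RNA. Csf2ra, the GM-CSF receptor alpha chain, had ratios of 0.21 and 0.50 in replicate 1 and of 0.30 and 0.81 in replicate 2. Its fitted difference of 0.56 (SE 0.15) did not pass in the limma fit (adjusted p = 0.0873), but did without parental 0 h replicate 2 (0.046) and without GM-CSF 24 h replicate 1 (0.0275). Il3ra, the IL-3 receptor alpha chain, was at 0.11 (SE 0.06) and Csf2rb2, the beta chain that mice use for IL-3 alone, at 0.08 (SE 0.22), with replicates of opposite sign. Of 16 measured genes of the receptor and signal chain, Ptpn6, the phosphatase SHP-1 that damps cytokine signals, rose by 0.41 (SE 0.08) and Il5ra, the IL-5 receptor alpha chain, by 0.32 (SE 0.08). Neither of these 2 calls was made without parental 0 h replicate 1, and that of Il5ra also failed without parental 0 h replicate 2 (adjusted p = 0.628) and without GM-CSF 24 h replicate 1 (0.547).

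Downstream of the receptor, 0 of 18 STAT5 targets passed. Cish, a STAT5-induced inhibitor, was at 0.32, Pim1, a survival kinase, at -0.02 and Bcl2l1, the survival protein BCL-XL, at 0.06. Among 26 ERK targets 3 rose and 0 fell, with a median of -0.01. Junb, an AP-1 subunit, had ratios of 0.32 and 0.39 in replicate 1 and of 2.14 and 2.43 in replicate 2, and rose by 1.10 (SE 0.27). Nearly all of its rise lay in replicate 2, and without parental 0 h replicate 2 the value was 0.18. Plaur, the urokinase receptor, rose by 0.63 (SE 0.15) and Phlda1 by 0.54 (SE 0.11). The count of 3 was 1 without parental 0 h replicate 1 and 0 without GM-CSF 24 h replicate 1.

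Of 22 myeloid transcription factors 4 rose and 0 fell, with a median of 0.13. Cebpd, a C/EBP factor of the acute phase, had ratios of 0.96 and 0.61 in replicate 1 and of 0.95 and 1.17 in replicate 2, and rose by 0.90 (SE 0.17). Cebpb and Nfe2l2 are given above. Spi1, the factor PU.1 on which macrophage and granulocyte genes depend, had ratios of 0.36 and 0.51 in replicate 1 and of 0.45 and 0.33 in replicate 2, and rose by 0.41 (SE 0.10). The PU.1 difference was small but alike on all 4 arrays. The count of 4 was 1 without parental 0 h replicate 1 and 2 without GM-CSF 24 h replicate 1.

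Granule and cell cycle genes gave no call at 24 hours. Of 21 late granule genes 0 passed in limma, with 3 higher and 3 lower at an unadjusted p under 0.05. Ngp, a neutrophil granule protein, had ratios of -0.75 and -1.11 in replicate 1 and of -2.28 and -2.29 in replicate 2. Ltf, lactoferrin, had ratios of -0.95 and -1.76 in replicate 1 and of -1.98 and -1.85 in replicate 2. Both were low on all 4 arrays, but their standard errors were 0.53 and 0.61 (adjusted p = 0.218 and 0.424). Stfa3, a stefin, pointed the other way at 1.42 (SE 0.40, adjusted p = 0.0821). Elane, the neutrophil elastase of primary granules, was at -0.92 (SE 0.34), and 0 of 13 primary granule genes passed. Of 45 genes of G1/S and DNA replication and 39 of G2/M and mitosis 0 passed, with medians of -0.05 and -0.09. The same held for the 5 measured subunits of the NADPH oxidase (median 0.16), 14 genes of MHC class II and costimulation, 27 progenitor regulators and 22 genes of cell cycle exit.

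Against the time before, 24 hours in GM-CSF differed from 12 hours at 376 probes, 269 higher (1.23% of all probes) and 107 lower (0.491%) at 24 hours, 1.73% either way. Of the 178 probes that had risen against parental 0 h, 32 were also higher than at 12 hours, and of the 62 that had fallen, 6 were also lower. The count was 124 without GM-CSF 24 h replicate 1 and 1134 without parental 0 h replicate 2, and no probe passed when the GM-CSF time course arrays were fitted alone.

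The genes that were higher at 24 than at 12 hours were led by Saa2, by 1.30 (limma adjusted p = 0.0256). Its fitted differences from parental 0 h were 0.16 at 6 hours, 0.42 at 12, 1.72 at 24, 1.11 at 48 and 0.80 at 72. Clec4n was higher than at 12 hours by 1.12, Slc11a1 by 1.01 and Bcl2a1d by 0.95. Slc11a1 stood at 0.04 at 6 hours and 0.48 at 12 hours, whereas Clec4n already stood at 0.54 and 1.32. Lyz2, the macrophage lysozyme, was 0.96 higher than at 12 hours on 1 probe, after values of -0.67 at 6 hours and -0.32 at 12 hours. Averaged over both Lyz2 probes, the difference from 12 hours was smaller, at 0.57. Against parental 0 h neither probe passed in limma, the first at 0.65 (adjusted p = 0.138) and the other at -0.02 (0.991).

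Lower at 24 than at 12 hours were Il18r1 by 1.06, Sqstm1 by 0.995, Lat by 0.69, Rbm3 by 0.69 and Cyp51 by 0.68 on the log2 scale. Sqstm1, the autophagy receptor p62, stood at 1.39 at 6 hours, 1.19 at 12, 0.20 at 24, -0.53 at 48 and -0.49 at 72. Il18r1 stood at 0.57 at 6 hours and 0.20 at 12, and was low from 24 hours on, at -0.86, -0.75 and -0.50. So the fitted values of both genes were above 0 at 6 and 12 hours, where the difference from parental cells was not tested. At 24 hours Il18r1 was below parental cells, and Sqstm1 did not pass (limma adjusted p = 0.901). Lat is an adaptor of T cell and mast cell receptor signalling, and Rbm3 a cold-induced RNA-binding protein.

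Of 40 measured ribosome biogenesis genes 14 were higher at 24 than at 12 hours, 0 were lower and 26 did not pass, against 1.83% of all genes called higher and 0.696% called lower, or 2.53% either way. The list's median difference from parental 0 h was -0.14 at 6 hours, -0.23 at 12, 0.06 at 24, -0.06 at 48 and -0.36 at 72, and 0 genes differed from parental cells at 24 hours. Nop56, a core protein of the box C/D small nucleolar particles, stood at -0.50 at 12 hours and 0.38 at 24. Myc, a transcription factor that drives this group, was 0.79 higher at 24 than at 12 hours (limma adjusted p = 0.0139 over genes) and stood at 0.53 against parental 0 h without passing. Nop56 and Myc were named after their values were seen.

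The median of the cholesterol list was 0.00 at 6 hours, -0.24 at 12, -0.56 at 24, -0.15 at 48 and -0.11 at 72, so 24 hours was the lowest of the 5 times. Cyp51, Msmo1 and Idi1 were lower at 24 than at 12 hours (3 of 19), and 0 of 19 differed from 48 hours. By contrast, the macrophage list had medians of 0.10, 0.21, 0.35, 0.37 and 0.53 over the 5 times. Among its genes 6 were higher at 24 than at 12 hours, Itgax and Cd68 with them.

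**Figure D4:**
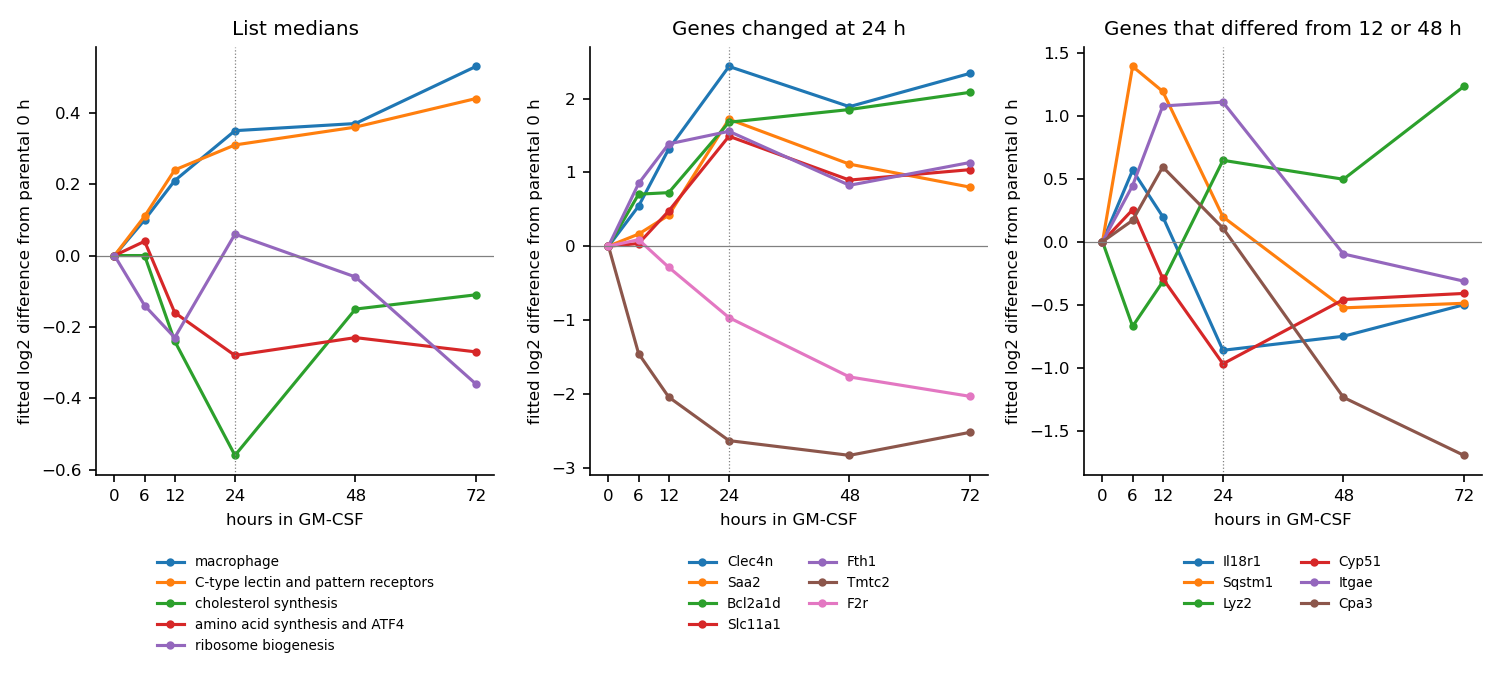
Fitted log2 difference from parental 0 h at 6, 12, 24, 48 and 72 hours in GM-CSF, with 0 h set to 0, for the medians of 5 gene lists (left), genes changed at 24 hours (middle) and genes that differed between 24 hours and 12 or 48 hours (right). The cholesterol median is lowest at 24 hours (-0.56), ribosome biogenesis is near 0 there (0.06), and Cpa3 and Itgae drop between 24 and 48 hours.

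Against the time after, 24 hours differed from 48 hours at 12 probes, all higher at 24 hours (0.0551% of all probes). The count was 11 without parental 0 h replicate 1, 22 without parental 0 h replicate 2, 39 without GM-CSF 24 h replicate 2 and 159 without GM-CSF 24 h replicate 1. Cpa3 was 1.34 higher at 24 hours than at 48 (limma adjusted p = 0.0353), having stood at 0.59 at 12 hours, 0.11 at 24, -1.24 at 48 and -1.70 at 72. Itgae, the integrin CD103, was 1.21 higher at 24 than at 48 hours. Itgae had ratios of 1.02 and 1.12 in replicate 1 and of 1.04 and 1.81 in replicate 2 against parental 0 h and rose by 1.11 (SE 0.20), but stood at -0.10 at 48 hours. Trf, transferrin, was 1.09 higher on 1 of its 4 probes and Adgrg1, an adhesion receptor, 0.91 higher. A probe annotated Tcrb-V8.2 was 0.97 higher, but 151 probes carry that symbol, and their average differed by 0.10 without passing. Of the mast cell list 2 of 22 genes were higher at 24 than at 48 hours, against 0.113% of all genes. They were Cpa3 and the IgE receptor chain Fcer1a.

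The 24 h response was then set against that of the receptor mutant lines left without factor for 24 hours. In replicate 2 the arrays pairing GM-CSF 24 h with parental 0 h lay on print run 2. Those pairing 24 h with 0 h within each mutant line lay on print run 1. The part of print run in these differences was not tested. In FI-Delta cells 0 probes differed in response from GM-CSF in limma, with 385 at an unadjusted p under 0.05, and leaving out 1 of the 4 RNAs gave 0 to 3. Fitted 24 h responses stood side by side as follows. Clec4n was at 2.44 in GM-CSF, against 1.06 in FI-Delta cells. Tmtc2 was at -2.64 in GM-CSF, against -2.79 in FI-Delta cells, and F2r at -0.97 against -1.60. The cholesterol list's median was -0.56 in GM-CSF, against -0.37 in FI-Delta cells, and the macrophage list's 0.35, against 0.32. A difference that misses the threshold does not show that the lines respond alike. The standard error of such a difference had a median of 0.13 over all probes. For the genes just given it was larger, at 0.36 for Clec4n, 0.43 for Tmtc2 and 0.33 for F2r.

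In V449E cells the response differed at 10 probes, all higher in GM-CSF (0.0459% of all probes). The count was 5 without parental 0 h replicate 2 and 19 without GM-CSF 24 h replicate 1. Bcl2a1c differed by 1.56 (limma adjusted p = 0.0304), with a response of 1.52 in GM-CSF, against -0.04 in V449E cells. Bcl2a1d differed by 1.52, with 1.68 in GM-CSF, against 0.16 in V449E cells. So these Bcl2a1 copies rose in GM-CSF while V449E cells stayed near their 0 h level. Tma16, a ribosome-associated protein, differed by 1.31 (0.91 in GM-CSF, against -0.40 in V449E cells). Clec5a differed by 1.19 (1.27 in GM-CSF, against 0.08) and P2ry14, a receptor for UDP-glucose, by 1.15 (0.75 in GM-CSF, against -0.40). Each of these 5 genes lost its call with at least 1 of the 4 RNAs left out. Fth1 stood at 1.56 in GM-CSF, against 1.60 in V449E cells, and Atf4 at -1.33, against -1.08. The cholesterol list's median was -0.56 in GM-CSF, against -0.29 in V449E cells, and the macrophage list's 0.35, against 0.26. The difference between these medians was not tested.

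**Figure D5:**
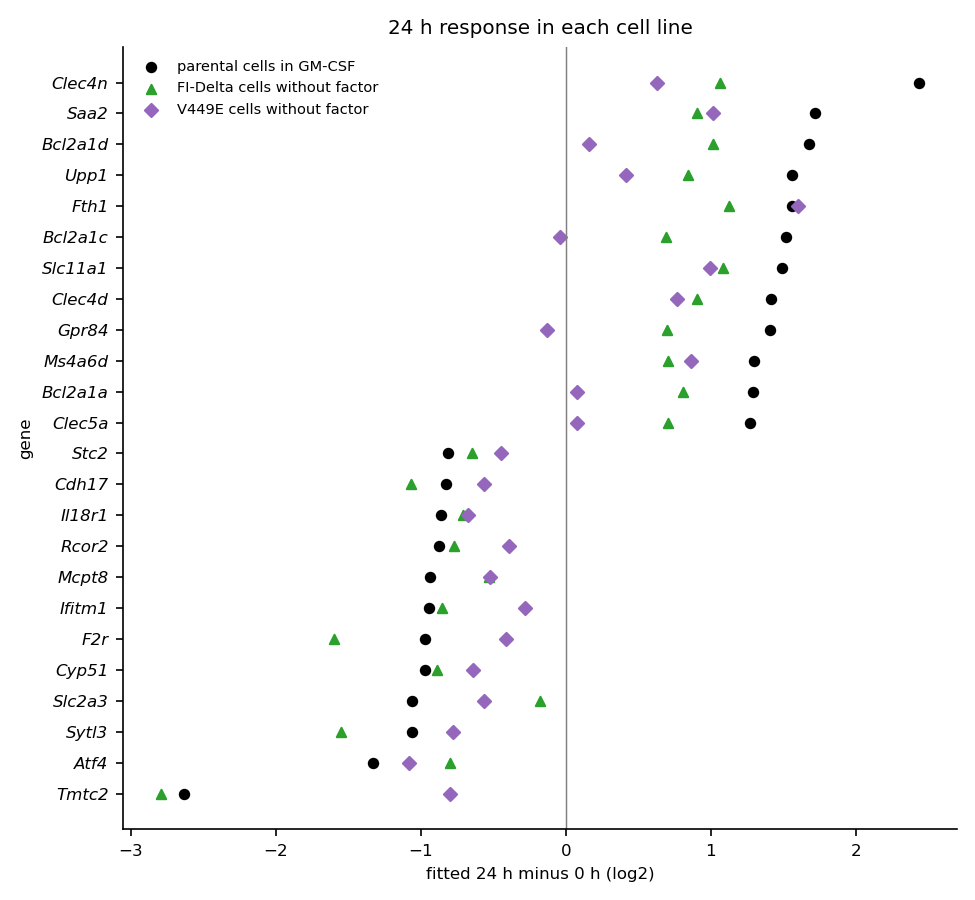
Fitted 24 h minus 0 h difference (log2) of the 12 largest rises and 12 largest falls in parental cells in GM-CSF (black circles), FI-Delta cells without factor (green triangles) and V449E cells without factor (purple diamonds). V449E values of Bcl2a1c, Bcl2a1d and Clec5a lie near 0 (-0.04, 0.16 and 0.08), whereas Fth1 is about level in GM-CSF (1.56) and V449E cells (1.60); error bars are not drawn.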

How the data were processed

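RNA of FDB1 cells was measured on spotted 2-colour oligonucleotide arrays, in dye-swap pairs over 18 conditions with 2 replicates each. The deposited values are log2 ratios that the authors normalised, with limma per the submitters' processing notes. Its version, how background was corrected and which normalisation was chosen are not given in the sources used here. The sample descriptions place both print runs' spots in 1 order after normalisation. No signal over background can be given, and precision is limited by how many arrays there are.

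Control spots were left out, which left 21797 probes, of which 16651 carried 1 gene symbol, 137 several and 5009 none in the platform annotation. Dye-swap pairs were averaged with signs turned. Least squares gave 36 RNA levels, within each replicate. limma 3.58.1 in R 4.3.3 tested these levels with the replicate number as a block (17 residual and 5.99 prior degrees of freedom), 2-sided, with Benjamini-Hochberg adjustment over all probes and a threshold of 0.05. Each GM-CSF 24 h RNA lay on 4 arrays and each parental 0 h RNA on 16. For gene lists the probes of 1 symbol were averaged (15097 genes), so a gene's adjusted p can differ slightly between the probe and gene fits. Genes named were the 12 largest rises and falls with both dye-swap averages in the fitted direction, up to 4 members that passed in each of 31 lists, up to 5 a direction in the other comparisons, and the receptor chains. Csf2rb was not analysed here. The members and lists were chosen with earlier results of these data known. The procedure was tested on simulated data. Promoter windows came from RefSeq.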

Additional observations from a re-analysis of the deposited data

Results flagged for a closer look

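The GM-CSF 24 h level differed from that at 12 h or 48 h, or the 24 h response from that of V449E cells, by a limma test of the difference itself. Against 12 h, 376 probes passed. The largest differences upward were of Saa2 (1.30), Clec4n (1.12), Slc11a1 (1.01), Lyz2 (0.96) and Bcl2a1d (0.95), and downward of Il18r1 (-1.06), Sqstm1 (-0.995), Lat (-0.69), Rbm3 (-0.69) and Cyp51 (-0.68). Against 48 h, 12 probes passed, led by Cpa3 (1.34), Itgae (1.21), Trf (1.09), Tcrb-V8.2 (0.97) and Adgrg1 (0.91). Against the response of V449E cells, 10 probes passed, led by Bcl2a1c (1.56), Bcl2a1d (1.52), Tma16 (1.31), Clec5a (1.19) and P2ry14 (1.15).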

How the results depend on the processing

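The 240 probes called between GM-CSF 24 h and parental 0 h became 465 with the direct arrays alone, 55 with the time course arrays alone, 157 with the first-named condition in Cy5 only and 106 with it in Cy3 only. Without the replicate block they became 307, the 376 against 12 h became 605, the 12 against 48 h became 30, and the counts against FI-Delta (0) and V449E cells (10) did not change. Against 12 h, 0 passed with the time course arrays alone, 176 with each array scaled to 1 spread, 193 in Cy5 only and 83 in Cy3 only. Against 48 h these settings gave 1, 2 and, in Cy5 only, 3, and leaving out the probes below the median spread gave 24. The V449E count was 5 in Cy5 only. With 1 RNA left out, the counts ran from 57 to 255 against parental 0 h, 124 to 1134 against 12 h, 11 to 159 against 48 h, 0 to 3 against FI-Delta and 5 to 19 against V449E cells. In these fits the lone RNA was assumed to vary like the other groups. With the time course arrays alone the calls numbered 3 in the macrophage list, 1 lysosome, 2 ATF4, 1 cholesterol, 3 inflammatory and 1 iron. The cholesterol count was 5 in Cy5 only and 3 in Cy3 only, the lysosome count 3 and 1, and the macrophage count 5 in Cy3 only. With 1 RNA left out the ranges were 6 to 9 macrophage, 1 to 5 lysosome, 3 to 7 ATF4, 0 to 8 cholesterol, 2 to 6 inflammatory and 2 to 5 iron. The cause was not tested. Of 350 values for the largest changes and receptor chains, 294 kept their side of the threshold, 54 lost the call and 2 gained one. Of 403 for list members named, 136 lost it, and of 235 for the other comparisons, 64. Among these values of named genes, none that had passed in the main fit changed direction. For the receptor chains, which had not passed, a change of sign without a call was counted as keeping their side. The direct arrays alone could give no value for the other comparisons, nor the time course arrays for the mutant lines.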
